A study of Drosophila melanogaster with 9 samples.

Results

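The 3′ untranslated region (3′ UTR) of fok was followed through 9 small RNA libraries from Drosophila melanogaster ovaries. fok is a small gene on chromosome 2L named after the kinesin gene it lies in, Klp38B (fledgling of Klp38B). It was chosen by the rise of its sense abundance over wild type in both enok mutants, so its mutant levels against wild type are given as a description, without a test. The deposited tables list 8510 3′ UTR features, 1 for each RefSeq transcript and exon, and 2 of them belong to fok. They are NM_001201926, called the long 3′ UTR here, and NM_080713, called the short one. Summed by gene symbol the tables hold 3104 genes, of which fok is 1.

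Most piRNAs, the small RNAs bound by PIWI proteins, come from long precursors of piRNA clusters and silence transposons in the fly ovary. Some messenger RNAs also give rise to piRNAs, mainly from the sense strand of their 3′ UTRs, and the best known of these genic sources is traffic jam (tj) in the somatic follicle cells that surround the germline. Such piRNAs carry the sequence of the messenger RNA itself.

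The 3 groups were ovaries with wild-type germline clones (WT) and with germline clones of the enok1 or the enok2 allele, each with 3 libraries. The study asked how loss of Enok, a histone acetyltransferase that acts on H3K23, changes germline piRNAs. The females were adults of 3 to 5 days, and total RNA was taken from egg chambers of the middle and late stages. All 9 libraries carry the heat-shock inducible recombinase hs-Flp over a wild-type chromosome, a FRTG13 site on both copies of the recombined arm, and ovo[D1-18] on one of these, which stops oogenesis in germ cells that have not recombined. The other FRTG13 arm carries no enok allele in WT, enok[1] in the first mutant group and enok[2] in the second. According to the study's methods enok1 has a premature stop codon and enok2 an amino acid substitution in the acetyltransferase domain. Larvae of all groups were heat shocked at 37 °C. With this system only the germline of the surviving egg chambers is uniformly homozygous, and the follicle cells around it are not. In bulk ovary, fewer cells of a type and less RNA per cell cannot be told apart. The study's methods call the libraries of a group independent replicates, but neither they nor the labels say that each came from its own dissection, so p-values measure the spread between these libraries, which may in part be technical.

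The values are abundances normalized to the microRNAs of each library and have no absolute unit. The smallest step between abundances, taken as 1 read, lay between 0.271 and 0.486. With it the sense 3′ UTR sums equalled 63421 to 97295 reads and the cluster sums 809957 to 1448087 reads per library. The sense 3′ UTR sum was 26392 to 31774 in all 9 libraries, whereas sense cluster sums were 301061 to 320877 in WT and 176048 to 254779 in the mutants. The median sense 3′ UTR with a mean abundance of at least 10 differed from WT by a log2 of 0.11 in enok1 and 0.06 in enok2.

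The long fok 3′ UTR starts at position 20081606 and the short one at 20082304 on the minus strand of chromosome 2L (dm3). In the Release 6 annotation they are 1177 and 479 bases long and begin at the same stop codon, so that the short one lies wholly within the long one. The long transcript has a further 698 bases at its distal end. The annotation places fok on the opposite strand inside the single intron of Klp38B (symbol neb, 2 exons), which encodes a kinesin of the KIF14 kind. The 3′ UTR of Klp38B was not analysed here. No annotated transposon overlapped fok, and the nearest was 10533 bases away.

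A read in the stretch common to both transcripts had been divided between them. For genes with 1 transcript, 82.4% to 84.9% of low abundances (under 8) were a whole number of reads within 0.05, against 21.1% to 23.5% for genes with several features. Where a gene had several features of identical value, summing them raised the share that was whole from between 27.2% and 35.1% to between 83.5% and 88.0%. For fok, the difference between the long and the short abundance gave the reads found only in the distal 698 bases, and 2 times the short abundance gave those of the common 479 bases. All 18 read numbers obtained in this way lay within 0.035 of a whole number. The deposited abundance of the long 3′ UTR is thus the distal part plus one share of the common part, and the short one is the other share.

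Sense small RNAs of the long fok 3′ UTR were about 4 times as abundant in both mutants as in WT. The WT libraries had abundances of 183, 158 and 194 (178 ± 18.6, SD, n = 3). The enok1 libraries had 658, 864 and 755 (759 ± 103, SD, n = 3). The enok2 libraries had 750, 613 and 700.4 (688 ± 69.4, SD, n = 3). All 6 mutant libraries were above all 3 WT libraries, while the ranges of the 2 mutants overlapped. The ratio of means to WT was 4.26 in enok1 and 3.86 in enok2, and the lowest mutant library was 3.39 and 3.16 times the highest WT library. On the log2(abundance + 1) scale the differences were 2.08 (SE 0.14) and 1.94 (SE 0.12). Both comparisons use the same 3 WT libraries, and this difference is what the gene was chosen for. Over all 298 sense 3′ UTR features with a mean of at least 10, 18.5% were called higher in enok1 and 17.8% in enok2, and 6.71% and 5.7% lower, by limma at an adjusted p under 0.05.

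The short fok 3′ UTR was far less abundant, and its mutant levels exceeded WT by a smaller factor. Its abundances were 11.0, 11.2 and 8.77 in WT (10.3 ± 1.34, SD, n = 3), 19.4, 20.1 and 17.6 in enok1 (19.0 ± 1.29, SD, n = 3) and 20.3, 20.9 and 20.01 in enok2 (20.4 ± 0.44, SD, n = 3). Again no mutant library reached down to WT. The ratio of means was 1.84 in enok1 and 1.98 in enok2. Summed over both features, fok reached 188 ± 17.6 in WT, 778 ± 103 in enok1 and 708 ± 69.1 in enok2 (SD, n = 3), ratios of 4.13 and 3.76 to WT.

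**Figure D1:**
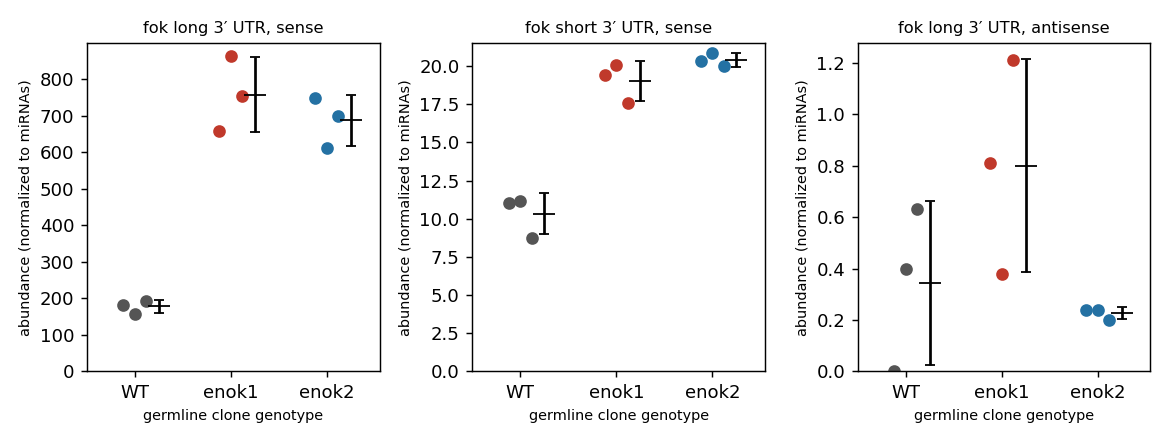
Abundance (normalized to miRNAs, no absolute unit) of the long fok 3′ UTR in sense, the short one in sense and the long one in antisense, with a linear axis of its own in each panel. Points are libraries and the black bars the mean ± SD of 3 libraries. Sense values of the long 3′ UTR lie between 158 and 194 in WT and between 613 and 864 in the mutants, those of the short one between 8.77 and 11.2 and between 17.6 and 20.9, and no antisense value exceeds 1.21.

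The 2 alleles were compared with a test, as the choice of fok did not use their difference. The choice did use the levels of both mutants, and a rise required in both favours features that are alike in the 2. The comparison is therefore not free of the choice. The long 3′ UTR was lower in enok2 than in enok1 by a log2 of -0.14 (SE 0.18, 95% interval -0.54 to 0.26), and limma gave an adjusted p of 0.922 over 298 features. The interval leaves room for a difference of either sign. None of the 298 features was called between the alleles by limma (0% in either direction), with 21 at an unadjusted p under 0.05 (7.05%). When each feature's own variance was used, again none was called and 10 had an unadjusted p under 0.05. Without enok1 replicate 1, 2 features were called, and without enok2 replicate 3, 3 features.

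The higher abundance of the mutants lay mostly in the distal part of the 3′ UTR. The 698 bases present only in the long transcript held 430, 367 and 443 sense reads in WT, 2353, 2227 and 1823 in enok1, and 1543, 1219 and 1734 in enok2. The common 479 bases held 55, 56 and 42 reads in WT, 143, 106 and 87 in enok1, and 86, 86 and 102 in enok2. Since reads were normalized by different factors, the parts are best compared as abundance per kb.

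Per kb of 3′ UTR, the distal part was denser than the common part in every library. Its sense abundance per kb was 247, 210 and 265 in WT, 914, 1209 and 1056 in enok1, and 1045, 848 and 975 in enok2. That of the common part was 46.0, 46.6 and 36.6 in WT, 81.0, 83.8 and 73.4 in enok1, and 84.9, 87.2 and 83.5 in enok2. The distal part was therefore 4.50 to 7.24 times as dense as the common part in WT, 11.3 to 14.4 times in enok1 and 9.73 to 12.3 times in enok2. Against WT the mean abundance of the distal part was 4.41 times as high in enok1 and 3.98 times as high in enok2, and that of the common part 1.84 and 1.98 times.

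The share of fok sense reads that fell in the common part was accordingly lower in the mutants. In WT it was 11.3% (95% exact Clopper-Pearson interval 8.66% to 14.5%), 13.2% (10.2% to 16.8%) and 8.66% (6.31% to 11.5%). In enok1 it was 5.73% (4.85% to 6.71%), 4.54% (3.73% to 5.47%) and 4.55% (3.66% to 5.59%), and in enok2 5.28% (4.24% to 6.48%), 6.59% (5.30% to 8.07%) and 5.56% (4.55% to 6.70%). The shares of the WT libraries were all above those of the mutants, but the interval of WT replicate 3 overlapped with those of all 3 enok2 libraries and of enok1 replicate 1. Such a share is free of the miRNA scaling, but it comes from the same libraries and contrast that chose fok and was not tested. Intervals cover counting error only and treat each read as an independent molecule. Amplified reads are not independent, so the intervals may be too narrow.

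**Figure D2:**
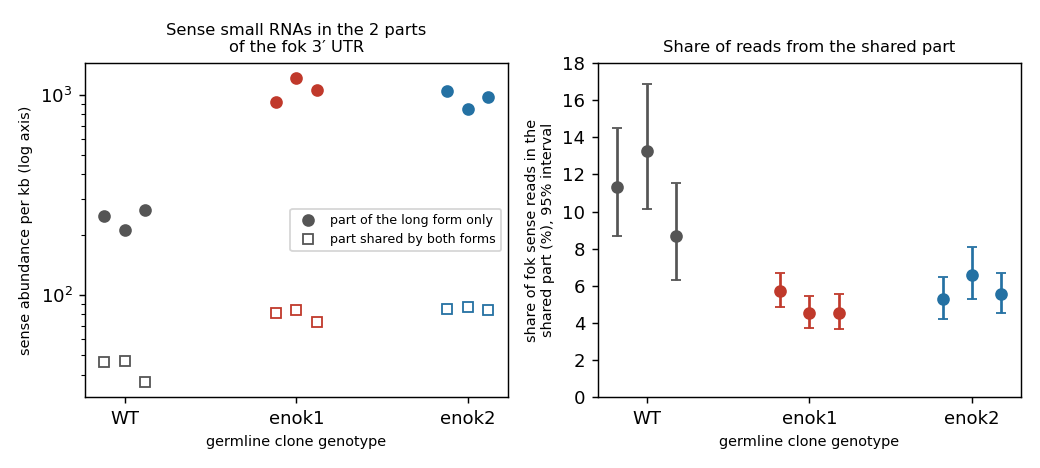
Left, sense abundance per kb (log axis) in the 698 bases of the long form only (filled circles) and in the 479 bases common to both forms (open squares) for each library. Right, the share of fok sense reads in the common part (%, linear axis) with its 95% exact binomial interval. The distal part moves from between 210 and 265 in WT to between 848 and 1209 in the mutants, and the share of the common part from between 8.66% and 13.2% to between 4.54% and 6.59%.

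Nearly all small RNAs of the fok 3′ UTR came from the sense strand. Antisense reads numbered 0, 2 and 2 in WT, 4, 1 and 5 in enok1, and 1 in each enok2 library. They made up 0% to 0.471% of fok reads in WT, 0.0428% to 0.261% in enok1 and 0.0544% to 0.0766% in enok2. In WT replicate 1, 0 of 485 reads allows a share of up to 0.619%. The antisense abundance of the long 3′ UTR was 0, 0.40 and 0.63 in WT, 0.81, 0.38 and 1.21 in enok1, and 0.24, 0.24 and 0.20 in enok2. These ranges overlap and rest on so few reads that no difference was detectable at this depth.

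fok ranked among the strongest sense 3′ UTR features already in WT and came close to the top in the mutants. Counting features of the same place and values once left 4595. The long fok 3′ UTR ranked 10, 9 and 9 among them in the WT libraries, 3, 3 and 2 in enok1, and 2, 3 and 3 in enok2. These ranks are by abundance per feature, which is not corrected for length. Some listed features belong to non-coding RNAs, such as small nucleolar RNAs, which have no 3′ UTR. They were kept in the ranks and in the sums.

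The features next to it changed with the genotype. By the WT mean fok (178) stood below the chorion gene Cp19 (183 ± 69.0) and the small nucleolar RNAs snoRNA:nop5-x16-a (241 ± 56.6) and snoRNA:CD-24 (246 ± 59.5), and above the semaphorin receptor PlexA (176 ± 36.1), the chorion gene Cp38 (169 ± 64.3) and CG17715 (136 ± 18.9, all SD, n = 3). The spread of Cp19, PlexA and Cp38 covers the WT mean of fok, so its order among these is not fixed by the data. In enok1, fok (759) came second to the chorion gene Cp15 (2075 ± 1031) and was followed by 7SLRNA:CR32864 (737 ± 127), an RNA of the signal recognition particle, by the growth regulator Myc (334 ± 39.2) and by snoRNA:nop5-x16-a (240.1 ± 78.9, all SD, n = 3). In enok2, Cp15 (3968 ± 1437) and 7SLRNA:CR32864 (775 ± 99.3) were above fok (688), and Myc (370 ± 5.38), snoRNA:nop5-x16-a (280.0 ± 47.0) and Cp18 (248 ± 128, all SD, n = 3) were below it. The library ranges of fok and 7SLRNA:CR32864 overlapped in both mutants (640 to 881 for the latter in enok1 and 682 to 880 in enok2), so their order is not fixed by the data, while fok was above every Myc library in both.

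When the features of each gene were summed, fok ranked 15 of 3104 by the WT mean, 2 by the enok1 mean and 4 by the enok2 mean. The 7SL RNA is listed under a pair of gene symbols with the same place and identical values. In this ranking it therefore counts as a pair of genes, both above fok in enok2. Divided by the 3′ UTR length (1225 bases over all annotated fok forms), fok ranked 16, 4 and 5 of the 2901 genes with a length, which are 93.5% of all. Per kb it reached 154 ± 14.4 in WT, 635 ± 84.4 in enok1 and 578 ± 56.4 in enok2 (SD, n = 3). Per kb in enok1, Cp15, Cp18 and Cp19 were above it, and in enok2 Cp38 as well, all chorion genes of the follicle cells.

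**Figure D3:**
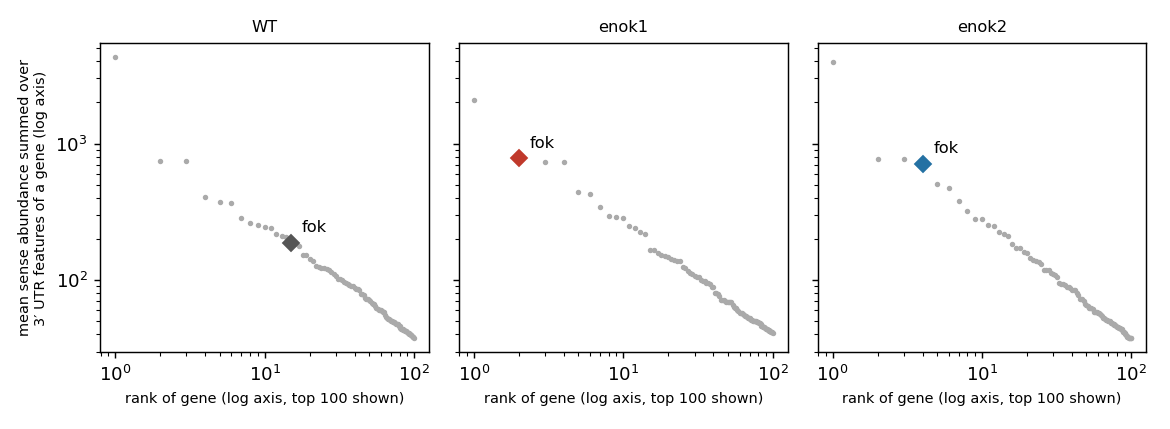
Mean sense abundance summed per gene against rank (both log axes) for the 100 strongest genes of each genotype, with fok as a coloured diamond. fok stands at rank 15 of 3104 in WT, with a mean of 188, at rank 2 in enok1, with 778, and at rank 4 in enok2, with 708.

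As a share of all sense 3′ UTR abundance, fok took up 0.681%, 0.571% and 0.736% in the WT libraries. It took up 2.57%, 2.90% and 2.43% in enok1, and 2.52%, 2.06% and 2.36% in enok2. These shares do not use the miRNA normalization, and the WT and mutant libraries were separate. They come from the same libraries and contrast that chose fok, so this separation is no independent evidence and was not tested. Set against the sum of all piRNA clusters on both strands, fok amounted to 0.0292% to 0.0354% in WT, 0.195% to 0.225% in enok1 and 0.161% to 0.176% in enok2. The cluster sum itself was lower in the mutants, so this ratio changed more than the abundance of fok.

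The 3′ UTRs around fok gave few small RNAs. Within 200000 bases on chromosome 2L the tables list 24 other features of 6 genes, 10 of them after identical ones are counted once. None of the features reached a mean abundance of 10, and the highest mean was 6.82. All 6 genes together had a mean summed sense abundance of 21.2 in WT, 27.6 in enok1 and 23.5 in enok2, against 188, 778 and 708 for fok alone.

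By 3′ UTR start, the nearest of the 6 listed genes was bwa, an alkaline ceramidase, 8933 bases away at the lower coordinate. Its sense abundance was 2.00, 5.78 and 1.04 in WT, 2.44, 1.33 and 1.62 in enok1, and 1.18, 2.67 and 2.75 in enok2, with overlapping ranges. The nearest listed gene on the other side was Kua, 20911 bases away. It had 1.60, 1.60 and 2.08 in WT, 0 in all 3 enok1 libraries and 0, 0.96 and 0 in enok2. These are a few reads per library. vls, a partner of the arginine methyltransferase that marks germ plasm proteins, lay 17345 bases away and had means of 0.24, 0.40 and 0.06 in WT, enok1 and enok2. sick, 124153 bases away, had means of 4.77, 4.18 and 4.69, and lncRNA:CR43097, 170958 bases away, was at 0 in every library. None of the 6 genes had a mean antisense abundance above 1.89.

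Only lok, the checkpoint kinase gene loki (Chk2), reached a mean of 10 when its features were summed. It begins 17630 bases away and had 11.8, 10.7 and 12.1 in WT (11.5 ± 0.73), 21.4, 27.9 and 14.5 in enok1 (21.2 ± 6.72) and 18.8, 16.5 and 13.4 in enok2 (16.2 ± 2.71, all SD, n = 3). Every mutant library was above every WT library. limma on the gene sums, an analysis added after seeing the data, gave a log2 difference of 0.78 (SE 0.23, adjusted p = 0.0268) for enok1 and 0.45 (SE 0.19, adjusted p = 0.114) for enok2, so that lok was called higher in enok1 alone. Among all 490 gene sums tested, 22.4% were called higher in enok1 and 13.3% in enok2. The enok1 call of lok was lost when WT replicate 1, 2 or 3 or enok1 replicate 1 or 2 was left out, with adjusted p from 0.0574 to 0.117, and it was lost with all 2597 genes of a mean of at least 1 (adjusted p = 0.121). In that wider fit 2.46% of genes were called higher and 0.924% lower in enok1, and 0.809% and 0.539% in enok2, and bwa and sick were in neither group, with adjusted p of 0.655 and 0.784 in enok1 and 0.898 and 0.992 in enok2. Taken feature by feature with a minimum mean of 1, 1 of the 5 neighbouring features that passed, a lok feature, was called higher in enok1 and none in enok2, against 5.96% and 0.904% of 2767 features. The difference between fok and lok was not tested.

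**Figure D4:**
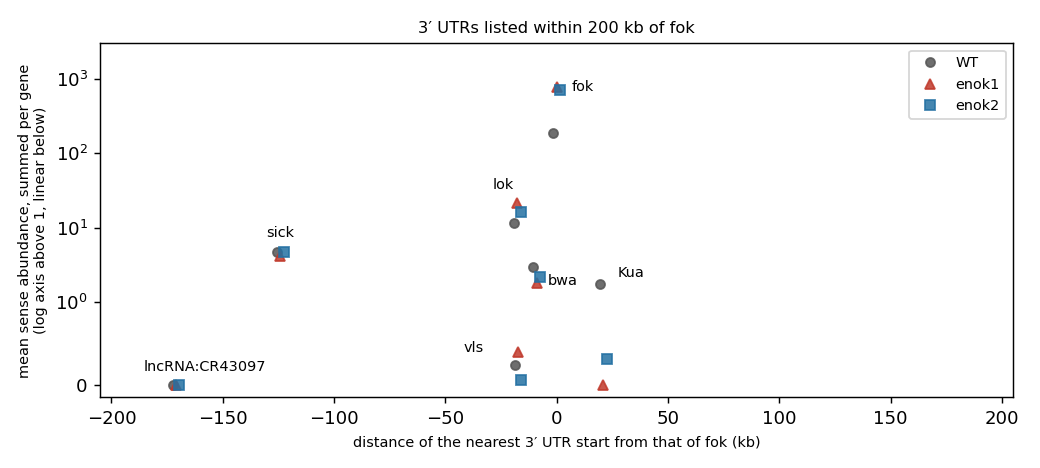
Mean sense abundance summed per gene (log axis above 1, linear below) against the distance of the nearest 3′ UTR start from that of fok (kb), with the 3 genotypes drawn side by side. fok stands at 188, 778 and 708, and of the 6 neighbours the highest is lok, at 11.5, 21.2 and 16.2 in WT, enok1 and enok2.

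Likeness to fok over the 9 libraries could be taken only for the short fok form and for 3′ UTRs elsewhere in the genome. No neighbouring feature within 200000 bases reached the minimum mean, so none could enter the comparison. Likeness was taken as Pearson's r on log2(abundance + 1) with the long fok 3′ UTR, over 297 other features with a mean of at least 10. The median r was 0.15, and 32 features had an r over 0.9. Libraries of 3 genotypes that differ in level give such values readily, and all features of a library share its normalization, so r is a description only.

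The closest was Rack1 (r = 0.99), which encodes a scaffold protein on the ribosome, with means of 92.5, 137 and 134 in WT, enok1 and enok2. Prp39, of a splicing complex (r = 0.99), had 27.6, 52.8 and 49.97, and ari-1, a ubiquitin ligase (r = 0.99), had 63.0, 168 and 158. Mical, an enzyme that oxidises actin (r = 0.98), had 23.5, 58.3 and 53.1, and NM_001259205 on chromosome 2L (r = 0.98), which matched no symbol, had 13.9, 49.98 and 45.1. After group means were taken out, r was 0.97 for Rack1, 0.59 for Prp39, 0.71 for ari-1, 0.20 for Mical and 0.28 for NM_001259205. The short fok 3′ UTR itself was placed 21 in this order, with an r of 0.94 and of -0.32 after group means were taken out.

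Among the 298 features fok had the largest log2 difference in enok1 (2.08) and the third largest in enok2 (1.94). The feature just below it in enok1 was NM_167298 of Amun (1.93). Above it in enok2 were NM_167298 (2.19) and NM_001201650 (2.11), both of Amun. These values are those by which fok was chosen and serve only to place it.

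Too few genes of the kinesin family, to which Klp38B belongs, could be tested to describe the family. Of 24 kinesin genes, 8 were listed and 2 reached a summed mean of 10, and neither was called in either mutant by limma (22.4% and 13.3% of all gene sums were called higher, and 4.69% and 3.27% lower). Klp10A, a kinesin that takes microtubules apart, had means of 73.99, 69.0 and 58.6 in WT, enok1 and enok2 (adjusted p = 0.700 and 0.242), and Kif3C had 22.1, 17.5 and 18.2 (adjusted p = 0.259 and 0.331).

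Most listed genes that make or use small RNAs were under a summed mean of 10. So were most genes in all, since 490 of 3104 reached it. Of 33 piRNA pathway genes 9 were listed, and none reached a summed mean of 10. The highest was fs(1)Yb, whose protein is needed for piRNA production in follicle cells, at 10.8, 8.77 and 7.90 in WT, enok1 and enok2. Of 8 genes of the microRNA and RNA interference pathways 5 were listed and 2 were tested. AGO1, the microRNA Argonaute, rose in enok1 from 15.03 ± 3.23 to 26.8 ± 2.59 (SD, n = 3, limma adjusted p = 0.0123) and was at 21.0 ± 3.17 in enok2 (adjusted p = 0.138). Its enok1 call was lost without WT replicate 3 (adjusted p = 0.0604), with the own variance of each gene (adjusted p = 0.0681) and over genes with a mean of at least 1 (adjusted p = 0.0875). Dcr-2, the Dicer of small interfering RNAs, had 11.9, 14.4 and 13.0 (adjusted p = 0.396 and 0.816). With a median-of-ratios scaling on clusters, AGO1 was called higher in both mutants (adjusted p = 0.00213 and 0.0409) and Dcr-2 in enok1 (adjusted p = 0.0412), and with scaling to the cluster sum the same calls were made (adjusted p = 0.000301, 0.00452 and 0.00351). These scalings raised calls in general. Of the 298 features, the median of ratios called 116 higher in enok1 and 73 in enok2, and the cluster sum 195 and 157, against 55 and 53 in the main fit.

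Some 3′ UTRs of marker genes of the ovarian cell types also differed from WT, and their part in the level of fok was not tested. Small RNA levels of these 3′ UTRs are not levels of the messenger RNAs. Of 22 follicle cell markers 18 were listed and 11 tested. In enok1 8 of the 11 fell, where 4.69% of all 490 gene sums were called lower, and in enok2 1 fell, Cp19, where 3.27% were. Vm26Ab and Vm34Ca, 2 of those that fell in enok1, had means under 10 there and passed the filter through the other groups. Of the 9 markers with a mean of at least 10 in every group 6 fell in enok1 and 1 in enok2, with median log2 differences of -1.13 and -0.49 against 0.20 and 0.14 for all gene sums. The chorion gene Cp18 fell in enok1 from 404 ± 76.2 to 80.2 ± 59.0 (SD, n = 3, limma adjusted p = 0.00398) and Cp15 from 4271 ± 1456 to 2075 ± 1031 (SD, n = 3, adjusted p = 0.0444). The call of Cp18 held with each library left out, whereas that of Cp15 was lost without WT replicate 1 or 2 or enok1 replicate 1 or 2 (adjusted p up to 0.148). The summed marker level was 4066 to 6973 in WT, 1747 to 3539 in enok1 and 3457 to 6369 in enok2. tj, the follicle cell piRNA source named above, was at 111 ± 13.5, 126 ± 25.7 and 114 ± 9.11 in WT, enok1 and enok2 (SD, n = 3) and was not called (adjusted p = 0.605 and 0.910).

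Without WT replicate 3 or enok1 replicate 2 the number of follicle cell markers that fell in enok1 was 4 or 5. In enok2 it was 4 without WT replicate 2, 3 without enok2 replicate 1, and 0 without WT replicate 3 or enok2 replicate 2 or 3. Of the 298 features, 18 and 17 were called lower in these enok1 fits, and 14, 11, 8, 9 and 11 in these enok2 fits, in the same order. With a median-of-ratios scaling on clusters 5 markers fell in enok1, scaled to the cluster sum 3 fell and 1 rose in enok1 and 1 rose in enok2, and with the own variance of each gene 1 fell in enok1 and none in enok2. Of the 298 features, these settings in turn called 12, 9 and 6 lower in enok1, against 20 in the main fit. In enok2 they called 10, 7 and 8 lower, against 17. Scaled to the cluster sum, 195 features were called higher in enok1 and 157 in enok2. The median log2 difference of the 11 markers was below 0 under every scaling, from -1.15 to -0.50 in enok1 and from -0.57 to -0.04 in enok2.

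Of 16 germline markers 8 were listed and 3 reached a summed mean of 10. Of these, orb and CycB had WT means under 10 and passed only through the mutants, so the number of calls among the 3 is no measure of the list. osk, the organizer of germ plasm, had means of 17.9, 34.3 and 29.9 in WT, enok1 and enok2 and was called higher in both mutants (limma adjusted p = 0.0125 and 0.0414), where 22.4% and 13.3% of all gene sums were. Its enok2 call was lost without WT replicate 1 or any of the 3 enok2 libraries (adjusted p up to 0.138) and when scaled to the sum of sense 3′ UTRs (adjusted p = 0.0620), and with the own variance of each gene, or over genes with a mean of at least 1, neither call was made (adjusted p = 0.112 and 0.180, and 0.0723 and 0.257). orb, a translational regulator of oocyte messenger RNAs, had means of 7.17, 15.5 and 13.8, and CycB, a mitotic cyclin, had 9.85, 16.8 and 16.9.

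The other 5 listed germline markers were not tested. In WT, enok1 and enok2, otu had means of 1.75, 5.40 and 7.20, gcl 2.32, 1.96 and 4.28, and piwi 2.24, 2.60 and 1.85. BicC had 1.61, 4.86 and 2.67, and exu 0.813, 1.00 and 1.65. The summed level of all 8 was 36.6 to 48.3 in WT, 76.3 to 90.7 in enok1 and 69.6 to 86.7 in enok2, most of it from osk, orb and CycB.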

How the data were processed

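Small RNAs of 18 to 30 nt were sequenced from 9 libraries. As the methods of the study state, the authors ran the small RNA pipeline of piPipes on UCSC dm3, with 0 mismatches and unique mappers only, and the labels name Trimmomatic. The deposited tables hold the resulting signal, a linear abundance normalized to miRNAs, in 1 sense and 1 antisense table for 3′ UTR features and for clusters.

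Features were matched to symbols through RefSeq Release 6 (98.1%). Release 6 gave only lengths, containment, gene structure and the overlap with and distance to transposons, because 86.1% of 648 starts on chromosome 2L were the same digit for digit in both builds. Differences were tested with limma 3.58.1 in R 4.3.3 on log2(abundance + 1), 2-sided, over features with a mean of at least 10, each pair of groups in its own fit, with Benjamini-Hochberg adjustment and calls at an adjusted p under 0.05, after the code had been tested on simulated data. This scale understates changes of low values.

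fok, its neighbours and the gene lists were chosen with earlier results of these data known. Named by plan were fok, Klp38B, the neighbours and the 3 features above and below fok in rank. The plan also took in the 5 features most like fok and up to 4 examples of each list. Beyond the plan, more than 4 follicle cell markers, all listed germline markers and the Amun features were named. Alternatives were 4 other scalings, other pseudocounts and filters, variances by feature, single libraries left out and a replicate block. Sums per gene and ranks per kb were added after seeing the data.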

Additional observations from a re-analysis of the deposited data

How the results depend on the processing

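The fok sense log2 difference to WT kept its direction under every alternative run. It was 2.40 in enok1 and 2.13 in enok2 with clusters as the base of a median-of-ratios scaling, and 2.70 and 2.40 when scaled to the cluster sum. These scalings also moved the median of all features to 0.41 and 0.24, and to 0.68 and 0.49. With single libraries left out it ranged from 1.98 to 2.18 in enok1 and from 1.86 to 2.02 in enok2. The difference between the alleles stayed uncalled throughout (log2 -0.30 to -0.04, adjusted p 0.404 to 0.994). With single libraries left out, 0 to 3 features were called between the alleles.

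Counts of called features depended more on the processing. In enok1, 55 features were called higher and 20 lower of 298. Scaling by the median of ratios gave 116 and 12, scaling to the cluster sum 195 and 9, variances by feature 32 and 6, a minimum mean of 1 gave 165 and 45 of 2767, and gene sums gave 110 higher of 490. In enok2, 53 were higher and 17 lower. The median of ratios gave 10 lower, the cluster sum 157 and 7, variances by feature 29 and 8, and a minimum mean of 1 gave 25 higher. Leave-one-out counts were 39 to 55 higher and 16 to 22 lower in enok1, and 29 to 48 and 8 to 17 in enok2, with 33 higher without WT replicate 1, 31 without enok2 replicate 1 and 29 without enok2 replicate 3, and with 8 lower without WT replicate 3, 11 without enok2 replicate 1 or 3 and 9 without enok2 replicate 2. The cause of these shifts was not tested. Of the neighbours, 1 feature of 5 was called higher in enok1 with a minimum mean of 1 (a lok feature), and 1 gene of 1 in the sums. The main neighbour comparison held no feature past the filter, so its scaling, pseudocount, variance and window alternatives gave no value.

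The summed lok difference was called in enok2 when scaled by the median of ratios (0.62, adjusted p = 0.0221) or to the cluster sum (0.87, adjusted p = 0.00233), and in enok1 it lost its call with variances by gene (adjusted p = 0.144). Those scalings called 73 and 157 of the 298 features higher in enok2.

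Replicate numbers were shared between groups. After group means were taken out, r between groups was -0.01 to 0.22 for same-numbered libraries. For libraries of different number it was -0.23 to 0.13. Whether same-numbered libraries share more than a number was not tested. With the replicate number as a block, 56 features were higher and 22 lower in enok1, 52 and 17 in enok2, and the fok difference between the alleles was -0.14 (adjusted p = 0.891). The enok2 call of osk was lost with the block (adjusted p = 0.0517).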
